A study of Homo sapiens with 2 samples.

Results

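The LDL receptor family genes considered here were LRP1, LRP1B, LRP2, LRP4, LRP5, LRP6, LRP8 and VLDLR, and their RNAs were searched for contacts of DDX18, a nucleolar protein of the DEAD-box family of RNA helicases. Members were chosen by name, and a peak was taken as theirs when the peak caller had assigned it to the Entrez identifier of the gene. A peak was listed for 7 of the 8 genes, all but LRP4, and together these genes held 65 of the 17163 entries and were 7 of the 6695 genes named in the list. The data came from iCLIP, in which ultraviolet light links a protein to the RNA it touches and the linked RNA is sequenced. Both samples, replicates 1 and 2 of a single group, were H9 human embryonic stem cells with 3XFlag-DDX18 expression under normal culture on inactivated mouse feeder cells, irradiated with 160 mJ/cm2 at 254 nm. They share 1 deposited peak list with 1 height per peak, so no error between replicates can be given for any value below, reads per sample are unknown here, and no control sample was used.

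Receptors of this family are large cell surface proteins built from repeated ligand-binding modules, EGF-like modules and YWTD propellers, followed by a single membrane-spanning segment and a short cytoplasmic tail. They take up lipoproteins and many other ligands by endocytosis, and several also pass signals. LRP1, LRP1B and LRP2 are the giant members, LRP5 and LRP6 are Wnt co-receptors, LRP4 organises the neuromuscular synapse, and LRP8 and VLDLR receive reelin in the developing brain. In stem cells the Wnt co-receptors lie upstream of beta-catenin, a regulator of self-renewal and of lineage choice.

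The peaks were spread unevenly over the family. LRP1 had 39 peaks, LRP5 and LRP6 had 8 each, LRP8 and VLDLR had 4 each, and LRP1B and LRP2 had 1 each. LRP1 thus held 60% of the family's peaks and 75.6% of its summed height of 995. The share of protein-coding genes listed with a peak was 31.0% over the whole RefSeq gene table (6218 of 20056). Because the genes were picked with this peak list known, nothing is read from 7 of 8 against that share. The members with a peak had a median of 4 peaks per gene and a median highest peak of 12, against 1 and 7 over all 6218 protein-coding genes with a peak. They were also long genes, with a median length of 151 kb including introns, against 50.9 kb over those 6218 genes. Peak heights are the authors' values and were not scaled to RNA abundance, so more contact per transcript and more transcript cannot be told apart.

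**Figure D1:**
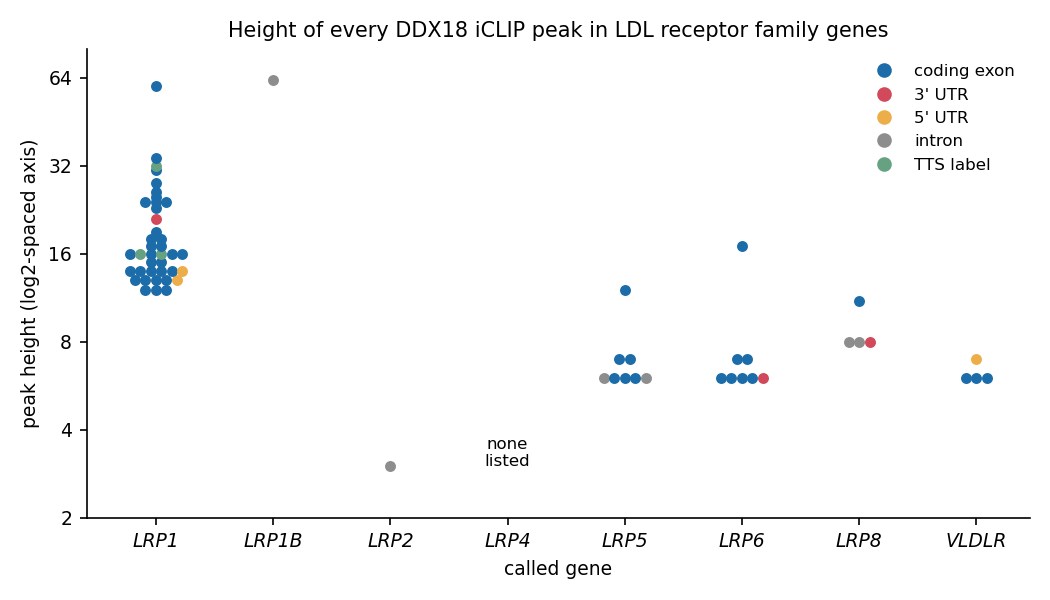
Height of each of the 65 peaks on a log2-spaced axis, by called gene, with points coloured by the annotated region. LRP1 peaks run from 12 to 60 and lie in exons or under transcript-end labels, the single peaks of LRP1B (63) and LRP2 (3) are intronic, and LRP4 has no peak listed.

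Family peaks lay mainly in coding sequence. Coding exons held 50 of the 65 peaks (76.9%, exact 95% binomial interval 64.8 to 86.5), against 7783 of all 17163 entries (45.3%, interval 44.6 to 46.1). The intervals cover counting error only, and neighbouring peaks of a gene share their transcript. The reference is also unlike the family, whose members with a peak are all protein-coding. The 17163 entries include genes that are not protein-coding, with 558 entries in non-coding exons, and only 16095 positions were distinct. A preference of the family for coding sequence is therefore not read from these shares. LRP1 supplied 33 of those coding peaks (84.6% of its own), LRP6 supplied 7, LRP5 6, VLDLR 3 and LRP8 1. Without LRP1 the coding share was 65.4% (17 of 26, interval 44.3 to 82.8). The family had 6 intronic peaks, 2 in LRP5, 2 in LRP8 and the single peaks of LRP1B and LRP2, and none in LRP1. A further 3 peaks lay in 5' UTRs, 3 in 3' UTRs, and 3 carried the label TTS, which the annotation program gives to stretches around transcript ends.

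LRP1, the clearance receptor for apolipoprotein E remnants, proteases and their inhibitors, had one of the highest numbers of peaks of any gene in the list. Its 39 peaks placed it eighth, level with KIF1A, and 7 genes had more, led by FRAS1 (56), DYNC1H1 (51) and HSPG2 (44). Those 7 include SNORD109A and SNORD109B, with equal peak number (43) and summed height (1539). A position called in more than 1 gene counts for each in this ranking. Heights in LRP1 ran from 12 to 60 with a median of 16 and quartiles of 14 and 23.5. The median over all 17163 entries was 8, with quartiles of 6 and 12. Among the 245 genes with 10 or more peaks, the LRP1 median height of 16 equalled the upper quartile of the gene medians, and its coding share of 84.6% compared with a median of 66.7% and an upper quartile of 83.3%. Its median peak width was 5 nt (range 1 to 17), against a median of 7 nt (quartiles 4 and 10) over those 245 genes, 28.2% of which had a smaller one, and 13 nt over the whole list.

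Along LRP1 the peaks ran from the first exon to the transcript end, over 84577 nt of chromosome 12 on the plus strand of hg19. The 36 peaks with an exon number fell in 31 of the 89 exons of transcript NM_002332. The 5' UTR in exon 1 held peaks of 13 and 14, at 241 and 328 nt from the annotated start. Exons 4, 6, 7, 8 and 14 then held 1 peak each, of heights 12, 17, 14, 16 and 13. These first peaks all stayed at or below 17.

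From exon 19 the heights increased. Exon 19 had a peak of 24, exon 22 one of 25, exon 23 one of 14, exon 24 one of 31 and exon 25 one of 24. Exon 27 had 2 peaks, of 16 and 28, and exon 29 one of 23. The peak of 31 in exon 24 lay at chr12:57569742-57569743. Of the 8 peaks in exons 19 to 29, 6 were 20 or higher, with a median of 24.

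The middle of the gene was lower. Exons 36 and 40 had a peak of 15 each, exon 41 had peaks of 16 and 18, exon 44 had 18 and 13, exon 46 had 19 and exon 56 had 14. The longest stretch without a numbered peak was the 9 exons between exons 46 and 56, but 2 peaks of 16 lay within that stretch under the label TTS. Exons 61 (14 and 14), 64 (13), 67 (16), 73 (17), 74 (13), 76 (12) and 77 (12) followed. No peak between exons 30 and 78 passed 19. By exon number, 13 of exons 1 to 30, 6 of exons 31 to 60 and 12 of exons 61 to 89 had a peak. Peaks under the label TTS carry no exon number and are not in these counts. Exon lengths were not used here, so these shares are not per base.

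The highest peaks stood together near the 3' end. Exon 79 had a peak of 34 at chr12:57602908-57602916, exon 80 the highest peak of the gene, 60, at position 57603560, and exon 82 one of 26. Exon 88 had a peak of 24, the 3' UTR in exon 89 one of 21, and the transcript-end label one of 32 at chr12:57607095-57607099. These 6 peaks held 197 of the summed height of 752 in LRP1 (26.2%), and the 8 peaks in exons 19 to 29 held 185 (24.6%). All 12 peaks of 20 or more lay in one or the other stretch, and the 25 peaks elsewhere ran from 12 to 19 with a median of 14. Both stretches were delimited after the heights had been seen, so the split is a description of this list. The ratio of the highest to the median peak was 3.75 in LRP1, against a median of 1.92 over the 245 genes with 10 or more peaks, and 21 of those genes had a larger ratio.

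**Figure D2:**
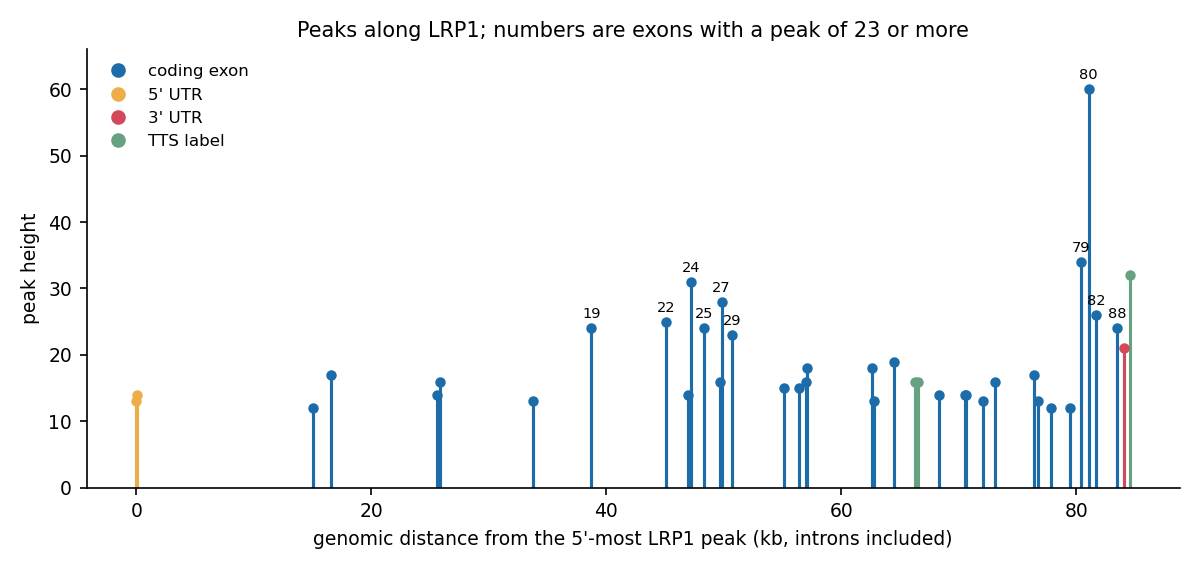
Height of the 39 LRP1 peaks against genomic distance in kb from the 5'-most peak, introns included, coloured by region, with exon numbers above peaks of 23 or more. The peaks of 20 or more stand in exons 19 to 29 and from exon 79 to the transcript end, where the highest reaches 60.

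Neighbouring LRP1 peaks in the same exon lay 82 to 131 nt apart. Such pairs occurred in 5 exons, with a gap from the end of the first peak to the start of the second of 85 nt in exon 1, 131 nt in exon 27, 82 nt in exon 41, 123 nt in exon 44 and 96 nt in exon 61. The median of these 5 gaps was 96 nt, and no gap in LRP1 was under 50 nt. Over all 2442 such pairs in the list the median gap was 215 nt, with a minimum of 19 nt and 3.85% under 50 nt. Exon length bounds such a gap, and it was not available for the comparison. Between exons the gaps include introns, and over all 38 neighbouring pairs of LRP1 the median was 1216 nt.

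A microRNA gene, MIR1228, lies within LRP1 on the same strand, and its start was the nearest annotated start site for 25 of the 39 LRP1 peaks. The start of NXPH4 was nearest for 8 and that of LRP1 itself for 6. The mature sequences are given because the microRNA is named beside most LRP1 peaks in the list. They are RefSeq's, from GRCh38.p14, 5′ to 3′, with the seed (bases 2 to 8) in capitals.
hsa-miR-1228-5p: gUGGGCGGgggcaggugugug
hsa-miR-1228-3p: uCACACCUgccucgcccccc
No LRP1 peak overlapped the 73 nt hairpin. The nearest, of height 16, lay 518 nt past its start, and the nearest before it, the exon 46 peak of 19, lay 1265 nt away. The 2 peaks of 16 labelled as transcript ends carry the label of this microRNA, not of LRP1.

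Each gene has a single expected height, PH0, in the list, and within every one of the 6695 called genes equal heights carry an equal p. How the caller derived PH0 is not given in the sources used here. LRP1 had a PH0 of 0.82, higher than in 93.3% of called genes, and its lowest listed height was 12. In LRP1 the deposited p was 0.0326 at a height of 12 (3 peaks), 0.00223 at 13, 0.000141 at 14, 8.22e-06 at 15, 4.45e-07 at 16 and 1.62e-08 at 17. From 18 upward, 15 peaks were listed at 1e-100, the lowest p in the list, so p does not rank the taller LRP1 peaks. Relative to PH0, LRP1 heights ran from 14.6 to 73.2 times the expected value with a median of 19.5. The median over the 16415 entries with a PH0 above 0.00 was 100 times. The LRP1 median was thus above that of the list by height and below it by this ratio. Both go with its PH0, which also moves the lowest height listed. That lowest height, 12, was 14.6 times PH0 in LRP1. In LRP5 and LRP6 it was 6, at 100 and 120 times PH0. Neither comparison is therefore read as a trait of the LRP1 peaks.

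LRP5 and LRP6, the paired Wnt co-receptors, had nearly the same PH0 (0.06 and 0.05), the same lowest height of 6 and the same number of peaks. LRP5, on the plus strand of chromosome 11, had peaks of 6 in intron 1, 12 in exon 8, 7 and 6 in exon 12, 6 in exon 14, 6 in exon 17, 7 in exon 20 and 6 in intron 21. Its highest peak, 12, was 1 nt wide at position 68171010 and stood at 200 times PH0. The intron 21 peak lay in a MIR element, a short interspersed repeat, and the intron 1 peak lay 15110 nt from the LRP5 start. Both introns are numbered on a transcript other than that of the LRP5 exons.

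LRP6, on the minus strand of chromosome 12, had peaks of 7 in exon 6, 7 in exon 8, 17 in exon 11 and 6 in exon 15. A further 4 peaks of 6 fell in exon 23, the last of the transcript, 3 in its coding part and 1 in the 3' UTR. The exon 11 peak, at chr12:12312738-12312760, was 23 nt wide and reached 340 times PH0, the largest ratio among the 5 members with a PH0 above 0.00. PH0 is given to 2 decimals, so that ratio could lie between 309 and 378. The 3 gaps within exon 23 were 87, 36 and 480 nt from 5' to 3'. In each of these co-receptor genes 5 of 23 exons had a peak, 5 of 8 peaks stood at the lowest listed height, and 1 peak was listed at 1e-100. The deposited p at a height of 6 was 0.0197 in LRP5 and 0.0127 in LRP6.

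LRP8 and VLDLR, the reelin receptors, had peaks of 8 to 11 and of 6 to 7, against a median of 8 over all 17163 entries. LRP8, on the minus strand of chromosome 1, had a peak of 8 in intron 2, 8 in intron 4, 11 in exon 10 of 17 and 8 in the 3' UTR. The intron 2 peak lay in a MIRc repeat, 4399 nt from the LRP8 start, and is numbered on a transcript other than that of the other LRP8 peaks. LRP8 had a PH0 of 0.22 and a deposited p of 0.0328 at a height of 8, the lowest it had. VLDLR, on the plus strand of chromosome 9, had a peak of 7 in its 5' UTR, 133 nt from the start, 1 of 6 in exon 9 and 2 of 6 in exon 13 of 19, separated by 28 nt. The VLDLR peaks of 6 had a deposited p of 0.0488, just inside the limit of 0.05 at which the list ends, with a PH0 of 0.09. In both genes 3 of 4 peaks therefore stood at the lowest listed height.

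**Figure D3:**
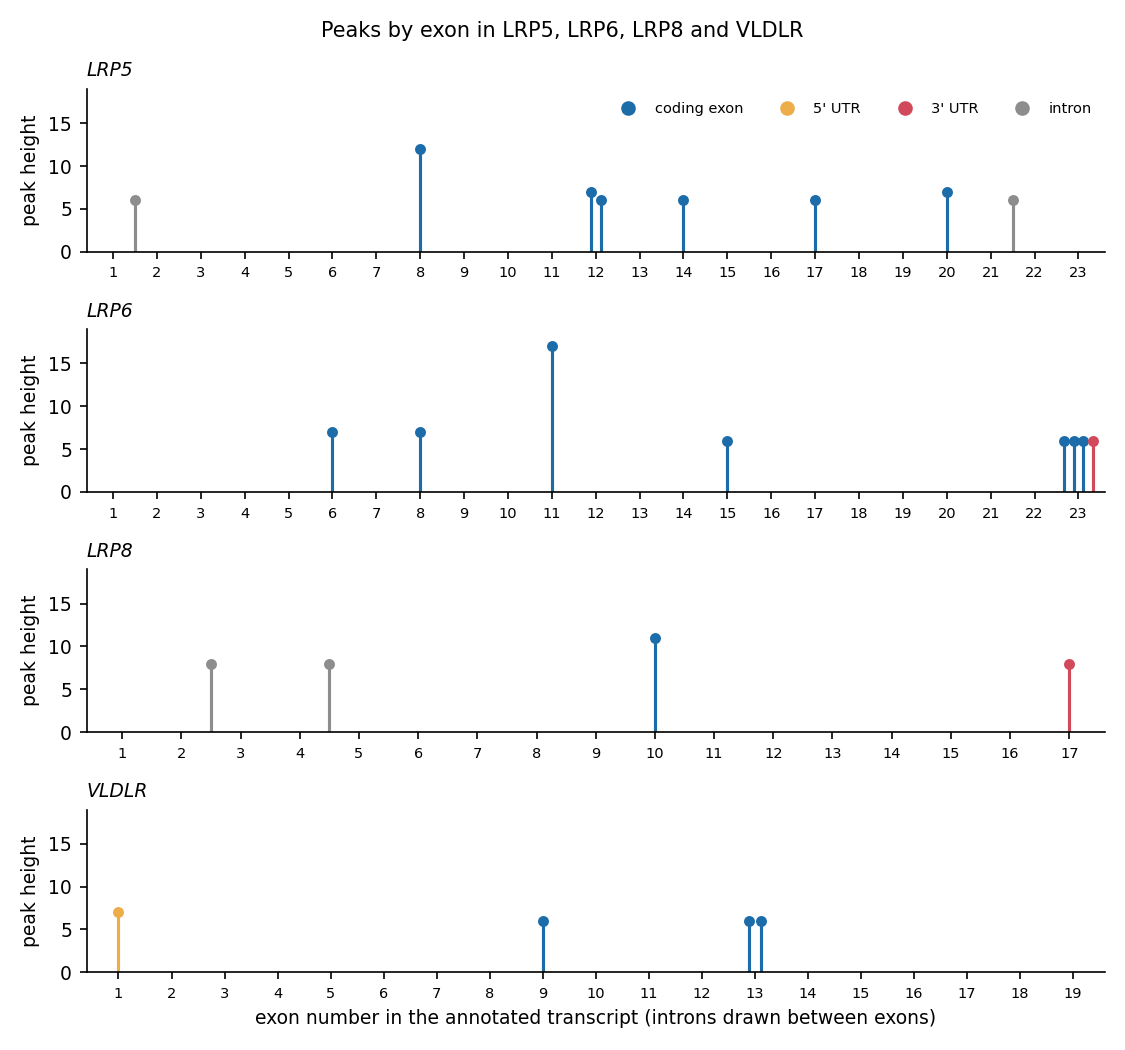
Peak height by exon of the annotated transcript, with introns drawn between exons, for LRP5, LRP6, LRP8 and VLDLR. The LRP5 introns and intron 2 of LRP8 carry numbers from a transcript other than that of the exons. Apart from exon 11 of LRP6 (17), exon 8 of LRP5 (12) and exon 10 of LRP8 (11), every peak has a height of 6 to 8.

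The remaining giant receptors had no exonic peak. LRP1B had a single peak of 63 in intron 7 of 90, at chr2:141854187-141854204 on the minus strand, 1035075 nt from its start. That is the highest peak of the family, and the list places it in a (GA)n simple repeat, with a PH0 listed at 0.00. Peaks in (GA)n repeats numbered 4 in the whole list, with heights from 18 to 79, whereas the 41 peaks in simple repeats of any kind had a median of 6. Of the 537 intronic peaks whose gene had a PH0 listed at 0.00, 4 were 63 or higher and the median was 4. LRP2, or megalin, the endocytic receptor of the kidney and of other absorbing epithelia, had 1 peak of 3 in intron 16 of 78. It lay in a HAL1 element, a LINE repeat, with a deposited p of 0.0216, and 3 is the lowest height in the list. Against lengths of 1900 kb and 235 kb, LRP1B and LRP2 had 0.0526 and 0.425 peaks per 100 kb of gene, while LRP1 had 45.9, VLDLR 10.5, LRP5 5.30, LRP6 5.30 and LRP8 4.67.

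The lowest height that a gene could show moved with PH0. Over all called genes the median lowest height was 4 in the 543 genes with PH0 listed at 0.00, 6 in the 1367 genes at 0.05 to 0.09, 8 in the 1170 genes at 0.10 to 0.29 and 12 in the 111 genes at 0.70 to 0.99. LRP5, LRP6 and VLDLR (6), LRP8 (8) and LRP1 (12) each stood at the median of their class. Heights of 6 and 7, which made up most of the LRP5 peaks, lie below the lowest listed height in LRP1, so low peaks could be listed in LRP5 but not in LRP1.

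**Figure D4:**
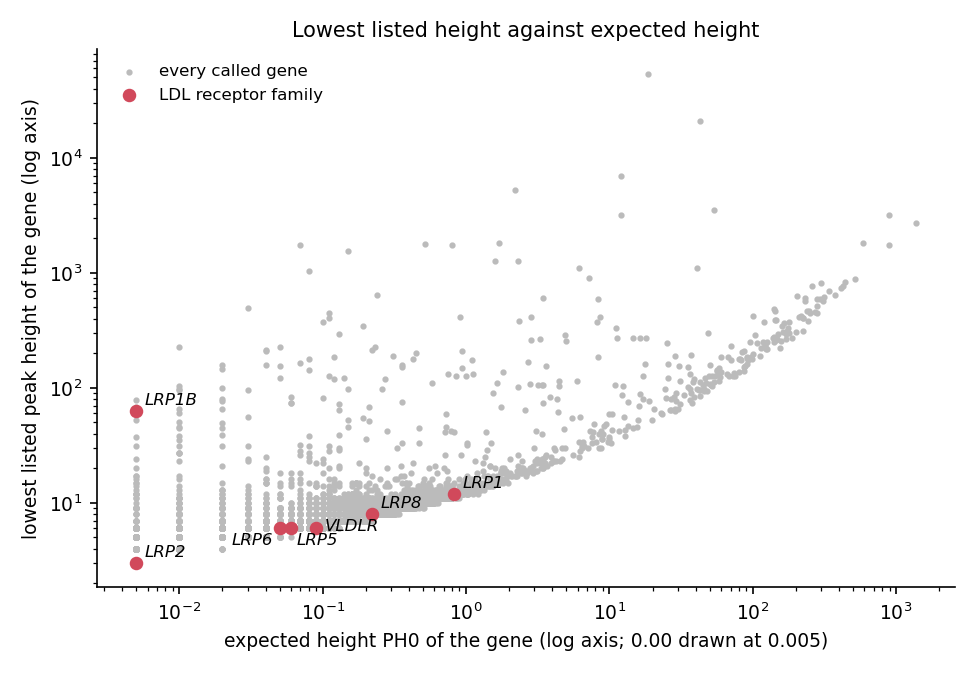
Lowest listed peak height of each called gene against its expected height PH0, both on log axes, with PH0 of 0.00 drawn at 0.005. The red points are the 7 LDL receptor family genes with a peak, of which LRP2, LRP5, LRP6, VLDLR, LRP8 and LRP1 sit along the lower edge of the grey cloud and LRP1B, at 63, lies above it.

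Among related receptors outside the 8 genes, 7 of 11 had a peak (63.6%, beside 31.0% over all protein-coding genes). SORL1, the sorting receptor that carries amyloid precursor protein, had 17 peaks of 7 to 15, and 16 of them lay in coding exons. Its PH0 of 0.09 was that of VLDLR. LDLRAD3 had 6 peaks of 5 or 6, none of them coding, and LRP10 had 1 of 17. LRP3, LDLRAD1, LDLRAD2 and LDLRAD4 had none listed.

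Ligands were listed in part. Of 15 ligand genes 6 had a peak (40.0%, beside 31.0% over all protein-coding genes). Among them were AGRN, the LRP4 ligand agrin (15 peaks, highest 33), and APOE, apolipoprotein E (5, highest 80). CLU, or clusterin, had 5 with a highest of 30. RELN had 1 peak of 3, with a PH0 listed at 0.00. Both chaperones that fold these receptors had 1 peak, LRPAP1 one of 8 and MESD, which serves LRP5 and LRP6, one of 5.

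Of 13 adaptors and regulators 7 had a peak, among them GULP1, an engulfment adaptor, with 2 peaks of up to 6, and SHC1, a signalling adaptor, with 1 of 14. Partners of LRP5 and LRP6 in Wnt signalling had a peak in 16 of 26 genes. CTNNB1, which encodes beta-catenin, had 22 peaks with a highest of 42, and LGR4, ZNRF3 and GSK3B had 3 each. None of the 5 partners of LRP2 and LRP4, CUBN, AMN, MUSK, DOK7 and RAPSN, had a peak. In cholesterol synthesis and uptake all 14 genes had one, with a median of 9.5 peaks per gene, among them SREBF2, which switches these genes on (27, highest 38), and SQLE, or squalene epoxidase (16, highest 70). These shares, and those of the related receptors, ligands and chaperones, stand beside 31.0% over all protein-coding genes, a background that includes unexpressed genes. All these lists were drawn up with other results of the series known.

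The cells carried peaks in 10 of 12 pluripotent stem cell markers, led by PODXL (31 peaks), LIN28A (16) and DNMT3B (16), and none was listed for POU5F1 or SOX2. LRP1, which fibroblasts also express, had a summed height of 752 over 39 peaks. Of 15 fibroblast or feeder markers 8 had a peak, with summed heights of 6 to 141 per gene. COL6A1 (10 peaks), FN1 (10), COL1A2 (8) and COL6A2 (5) led that list, and COL3A1, COL6A3, VIM, LUM, DCN, POSTN and S100A4 had none listed. The shares of both marker lists stand beside 31.0% over all protein-coding genes, a background that includes unexpressed genes. Both lists were drawn up with other results of the series known, so nothing on cell identity is read from them. Summed height grows with the number of peaks and was not scaled to RNA length or abundance. The part of feeder cells in the LRP1 peaks was not tested.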

How the data were processed

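FLAG-tagged DDX18 was pulled down from H9 cells and its RNA sequenced (iCLIP, 2 samples, 1 group). Reads were checked with FastQC 0.10.1 and BWA and hg19 were used, per the submitters' processing notes. Peaks were annotated with HOMER's annotatePeaks.pl on hg19, per the file headers, while the peak caller is not given in the sources used here. The authors deposited the peak height as a whole-number signal, with the called gene, PH0 and p in the peak's name. Their 1 list names no replicate, and it was taken here to pool both samples. Of 17163 entries, 16095 positions were distinct, and no family position was called in another gene.

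Peaks were taken by called gene and summarised with Python 3.11.15, pandas 2.3.3 and scipy 1.17.1, after a check on simulated tables. Intervals of shares are exact (Clopper-Pearson), and those of medians run between ordered values picked by the binomial distribution. RefSeq (GRCh38.p14) gave names and gene lengths for 6677 of 6695 called genes, and no peak position. All 8 members are named, and up to 4 genes per list by peak number. Some list genes are not reported here. Members and lists were chosen with earlier results of these data known, so nothing was tested. Alternatives were stricter p or height, exonic peaks, the nearest gene, positions of 1 gene, merged neighbours and, added after seeing the data, omission of LRP1. Peaks per kb of coding length were not computed, as coding lengths were not used here.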

Additional observations from a re-analysis of the deposited data

How the results depend on the processing

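Across 5 results, 40 alternative values were computed, and 29 stayed within the 95% interval of the reported value (or within 1.5 times, for the number of peaks). Some of the 29 were fixed in advance and say nothing about stability. Keeping positions of 1 gene could change no value, since no family position was called in another gene. Keeping exonic peaks left the same 10 pairs for the gap within an exon. Against 65 peaks, the count was 12 by the gene of the nearest start site, 43 with a height of 10 or more, 29 with a p up to the median of the list (3.87e-05) and 26 without LRP1, a setting chosen after seeing the data. Against a median height of 14, it was 18 with a p up to that median and 6 without LRP1. The coding share of 76.9% became 89.3% with exonic peaks only, which leaves out introns by construction, and 33.3% by the nearest start site. The median height relative to PH0, 29.3 times, was 20.1 by the nearest start site, 19.5 with a height of 10 or more and 100 without LRP1. The median gap within an exon, 86 nt, rests on 10 pairs. It stayed within its interval of 36 to 131 nt, but on 1 pair by the nearest start site, 2 with a p up to that median, and 5 with a p of 0.01 or lower, with a height of 10 or more or without LRP1, which says little about its stability. By the nearest start site, most LRP1 peaks pass to MIR1228 and NXPH4. Peaks per kb of coding length were not run. No paired analysis was possible because both samples share 1 list with no value per replicate, and for the same reason no replicate could be left out. The list holds significant peaks only, so lower peaks and LRP4 could not be followed further.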
